A study of Sus scrofa with 15 samples.

Results

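A group of 61 genes had lower mammary expression 2 d before parturition than 14 d before and 1 d after it. In 60 of them the mean at 2 d was also the lowest of the 5 time points. A gene was taken into the group when its mean at 2 d prepartum was at most 0.67 times the mean at 14 d prepartum and also at most 0.67 times the mean at 1 d postpartum, when all 3 libraries of 2 d prepartum were below all 6 libraries of those time points, and when its highest time point mean was at least 5 CPM (the counts of a gene relative to the library total, scaled by edgeR with trimmed means of M-values, TMM). Of 25322 genes listed, 13503 had at least 1 CPM in at least 3 of 15 libraries, 327 of these met the ratio, 100 met the ratio with no overlap, and 61 met all conditions. A symbol was found for 43 of them, and 18 are known only by their Ensembl gene identifier.

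Mammary tissue was biopsied under anaesthesia from 3 crossbred Danish Landrace × Yorkshire sows in their 2nd parity, chosen for high colostrum yield, at 14, 10, 6 and 2 d prepartum and 1 d postpartum, and mRNA was sequenced from stranded libraries. The same 3 sows gave the 3 libraries of every time point. Every sow had its own diet, so the effects of diet and of sow cannot be told apart. By the gestation days in the paper, the diets began close to or after the earliest time point. A change of diet may thus be mixed with time as well. Each sow was biopsied again at every time point, and the paper reports Banamine after each biopsy. What diet change, earlier biopsies and this drug added to the changes over time was not tested. Sow numbers 1 to 3 are not in the labels and were joined from the study's alignment summary by exact total count. No time point was an untreated control, and days are relative to the birth. The libraries held 10782343 to 19952918 counted reads, and the lowest count of any of the 61 genes in any library was 15.

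In the last days of pregnancy the mammary epithelium of the sow passes from growth to secretion: alveolar cells begin to make milk proteins, and colostrum gathers before birth. The extracellular matrix is the scaffold of collagens, glycoproteins and their modifying enzymes around the ducts and alveoli, and its make-up changes as alveoli expand and fill. Keratins form the intermediate filaments of epithelial cells, and ion transporters of these cells set the salt and water content of the secretion.

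Since the values of 14 d and 2 d prepartum and 1 d postpartum chose the genes, the decline and the rise between those days are a description and were not tested. The ratio of the mean at 2 d prepartum to the lower of both end means ran from 0.342 to 0.66982 with a median of 0.596, and 9 genes were at 0.5 or less. The mean at 14 d prepartum was 1.49 to 3.55 times that at 2 d prepartum (median 1.71), and the mean at 1 d postpartum was 1.49 to 28.2 times that at 2 d prepartum (median 2.18). The rise after birth was thus the more variable side of the pattern. At the threshold, the member nearest to 0.67 was ENSSSCG00000015025 with a ratio of 0.66982, and the nearest gene beyond it was LTBP2, a matrix protein that binds microfibrils, with 0.67012. LTBP2 had 15.3 ± 1.66 CPM at 14 d prepartum, 10.3 ± 1.99 CPM at 2 d prepartum and 246 ± 192 CPM at 1 d postpartum (SD, n = 3), a profile of the same shape as the members.

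**Figure D1:**
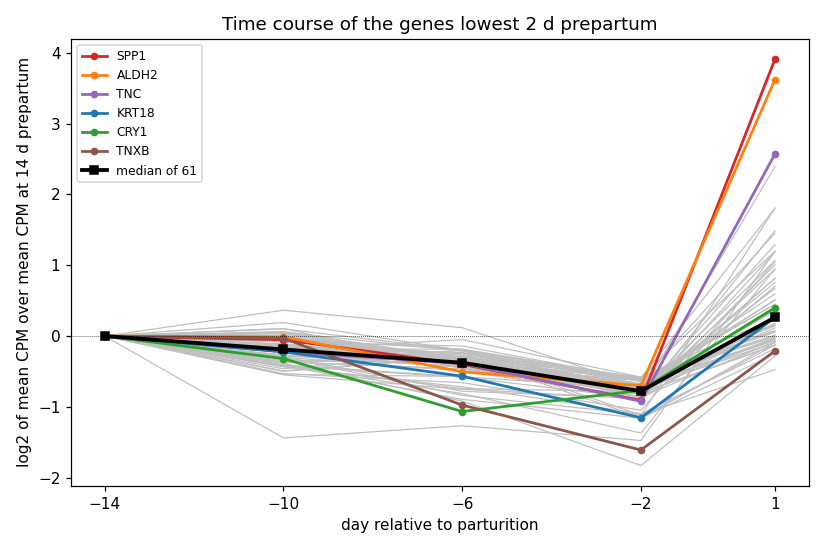
Each line is 1 of the 61 genes, drawn as the log2 of its mean CPM (n = 3 libraries) over its mean at 14 d prepartum, against the day relative to parturition; 6 genes are coloured and the black line is the median. The median reached -0.78 at 2 d prepartum on the scale of the fitted changes, and the lines fan out at 1 d postpartum, where SPP1, ALDH2 and TNC lie highest.

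The matrix glycoproteins and enzymes included the named gene with the lowest ratio, TNXB, and the gene with the largest rise, SPP1. Values are given per library with the sows in the same order at each time point. TNXB, which encodes the matrix glycoprotein tenascin X, had 21.7, 34.5 and 67.7 CPM at 14 d prepartum, 53.1, 27.9 and 40.2 CPM at 10 d, 17.4, 14.3 and 31.4 CPM at 6 d, 14.6, 8.11 and 17.9 CPM at 2 d and 40.002, 27.4 and 39.8 CPM at 1 d postpartum. Its libraries at 14 d prepartum spanned a wide range, the 10 d libraries lay within that range, and the 6 d libraries overlapped both neighbouring time points. TNC, the related tenascin C, had 15.2, 20.6 and 30.1 CPM at 14 d prepartum, 13.9, 18.1 and 24.5 CPM at 10 d, 12.1, 15.3 and 23.1 CPM at 6 d, 10.9, 10.96 and 12.99 CPM at 2 d and 26.0, 121 and 245 CPM at 1 d postpartum. The prepartum values of TNC overlapped from each time point to the next, and after birth sow 1 lay within the range of 14 d while the other sows lay far above it. SPP1, which encodes the secreted phosphoprotein osteopontin, had 18.4, 23.6 and 24.3 CPM at 14 d prepartum, 8.61, 22.3 and 33.1 CPM at 10 d, 11.8, 16.8 and 21.7 CPM at 6 d, 8.04, 13.7 and 13.6 CPM at 2 d and 259, 458 and 278 CPM at 1 d postpartum. All 3 postpartum libraries of SPP1 were far above every prepartum library, and the largest fold of the group, 28.2 from 2 d prepartum to 1 d postpartum, was that of SPP1.

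CILP, a cartilage intermediate layer protein of connective tissue, had 16.7, 8.80 and 10.4 CPM at 14 d prepartum, 10.7, 6.33 and 7.60 CPM at 10 d, 11.4, 5.59 and 7.19 CPM at 6 d, 7.12, 4.30 and 4.65 CPM at 2 d and 8.17, 8.93 and 16.7 CPM at 1 d postpartum. The 10 d and 6 d libraries of CILP overlapped almost fully. LOXL1, a lysyl oxidase-like enzyme that cross-links elastin, had 10.9, 17.8 and 15.6 CPM at 14 d prepartum, 17.2, 12.5 and 16.2 CPM at 10 d, 11.05, 11.8 and 15.4 CPM at 6 d, 7.70, 8.41 and 9.15 CPM at 2 d and 28.4, 47.8 and 32.0 CPM at 1 d postpartum. Its 14 d and 10 d libraries overlapped fully and its postpartum libraries were above all prepartum ones. COL12A1, a chain of the fibril-associated collagen type XII, had 20.1, 30.7 and 34.2 CPM at 14 d prepartum, 35.5, 25.6 and 27.8 CPM at 10 d, 19.1, 18.1 and 31.1 CPM at 6 d, 17.4, 19.9 and 17.9 CPM at 2 d and 39.3, 81.7 and 112 CPM at 1 d postpartum. COL12A1 was also higher after birth than in any prepartum library. The secreted serine protease HTRA3 had means of 30.8 ± 2.81 CPM at 14 d prepartum, 16.97 ± 0.866 CPM at 2 d prepartum and 54.3 ± 15.3 CPM at 1 d postpartum (SD, n = 3). The remaining matrix or secreted members were RCN3, a calcium-binding protein of the endoplasmic reticulum, SBSPON and ISM1, with ratios of 0.596, 0.622 and 0.659. These 10 genes, called the matrix genes below, were grouped by role after the members were known. The group is loose, since RCN3 is placed in it although its protein lies within the cell.

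**Figure D2:**
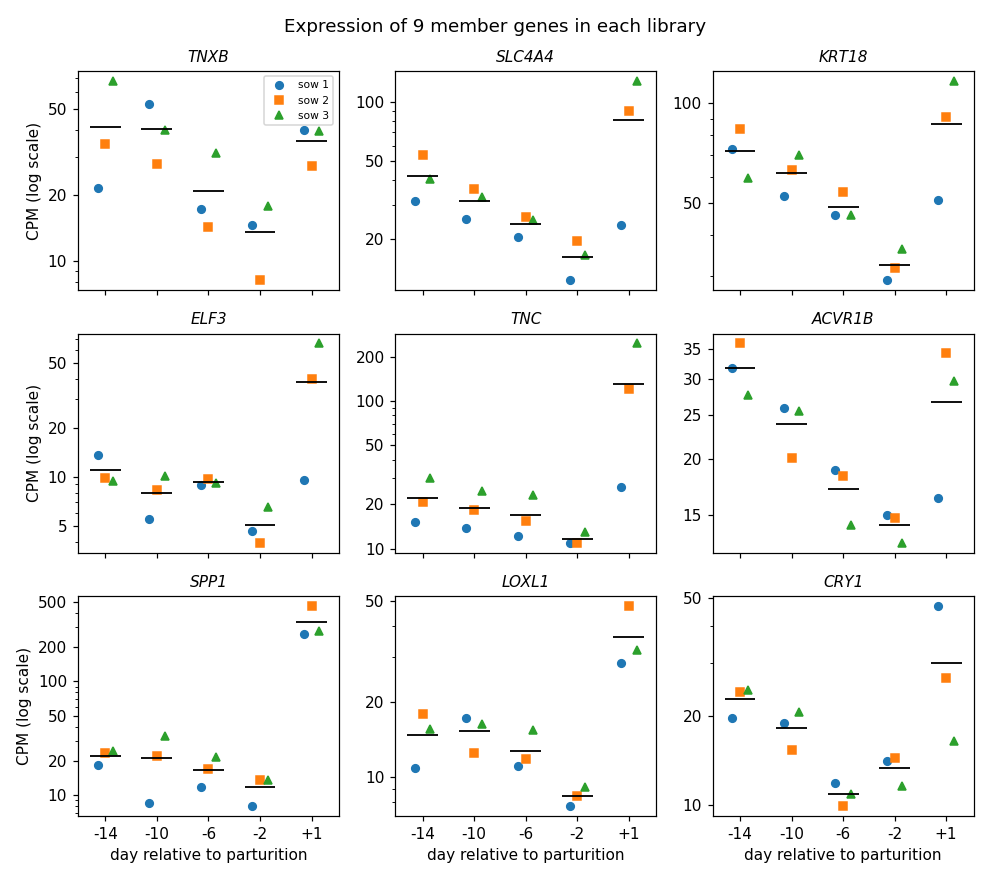
CPM (log scale) of 9 genes in each of 15 libraries against the day relative to parturition; colours and symbols are the 3 sows and the horizontal bars are means of 3. In TNC, ELF3, SLC4A4 and KRT18 the postpartum library of sow 1 lies lowest of the 3 sows, while in CRY1 it lies highest.

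Among epithelial genes, receptors and regulators, KRT18 encodes a keratin of simple epithelia that pairs with keratin 8. KRT18 had 72.6, 83.8 and 59.4 CPM at 14 d prepartum, 52.6, 62.8 and 69.6 CPM at 10 d, 45.9, 54.0 and 46.0 CPM at 6 d, 29.1, 31.7 and 36.3 CPM at 2 d and 51.1, 91.1 and 117 CPM at 1 d postpartum. The libraries of 2 d prepartum were below all others, and those of 6 d overlapped with the lowest of 10 d. The KRT18 gene model overlapped another model on the same strand, where a shared read may be assigned to neither. KRT8, the partner keratin, was not a member because 1 postpartum library fell within the range of 2 d prepartum, and it is named after its values were seen. KRT8 had 355, 426 and 341 CPM at 14 d prepartum, 252, 332 and 365 CPM at 10 d, 240.2, 301 and 288 CPM at 6 d, 168, 196 and 219 CPM at 2 d and 215, 466 and 619.7 CPM at 1 d postpartum, with a ratio of 0.519. ELF3, an ETS transcription factor of epithelia, had 13.7, 9.81 and 9.41 CPM at 14 d prepartum, 5.4998, 8.30 and 10.1 CPM at 10 d, 8.88, 9.75 and 9.16 CPM at 6 d, 4.69, 3.93 and 6.57 CPM at 2 d and 9.53, 39.97 and 65.7 CPM at 1 d postpartum. Its 6 d libraries lay within the range of 10 d and overlapped that of 14 d, and its postpartum spread was wide.

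ACVR1B, a type I receptor for activin, had 31.8, 36.0 and 27.7 CPM at 14 d prepartum, 26.0, 20.1 and 25.5 CPM at 10 d, 18.8, 18.3 and 14.2 CPM at 6 d, 15.0, 14.8 and 12.99 CPM at 2 d and 16.3, 34.2 and 29.8 CPM at 1 d postpartum. All libraries of 10 d were below those of 14 d, all of 6 d were below those of 10 d, and the 6 d and 2 d libraries overlapped. ANXA8, a calcium-dependent membrane-binding annexin, had 10.5, 15.7 and 11.1 CPM at 14 d prepartum, 7.62, 11.1 and 10.3 CPM at 10 d, 8.83, 10.7 and 7.64 CPM at 6 d, 5.67, 8.05 and 6.42 CPM at 2 d and 18.9, 37.1 and 19.1 CPM at 1 d postpartum. NDRG2, an N-myc downstream regulated gene, had 56.0, 51.5 and 49.2 CPM at 14 d prepartum, 42.3, 30.6 and 44.0 CPM at 10 d, 34.8, 34.3 and 35.8 CPM at 6 d, 29.2, 24.999 and 30.9 CPM at 2 d and 31.5, 63.1 and 92.6 CPM at 1 d postpartum. Both were above the 2 d libraries in all postpartum libraries, NDRG2 by a narrow margin in sow 1. ANXA1, a further annexin and the named member with the highest mean CPM over all libraries (not scaled to gene length), had 119, 168 and 158 CPM at 14 d prepartum, 119.6, 153 and 138 CPM at 10 d, 85.5, 108 and 136 CPM at 6 d, 76.4, 101 and 94.8 CPM at 2 d and 127, 156 and 237 CPM at 1 d postpartum. Sow 1 had the lowest value of ANXA1 at each time point, and the 6 d range reached into those of 10 d and 2 d.

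MET, the receptor for hepatocyte growth factor, had 14.7 ± 2.47 CPM at 14 d prepartum, 8.76 ± 1.78 CPM at 2 d prepartum and 19.1 ± 7.60 CPM at 1 d postpartum (SD, n = 3). HEY2, a transcription factor downstream of Notch, had 11.6 ± 1.68 CPM at 14 d prepartum, 6.40 ± 0.365 CPM at 2 d prepartum and 10.97 ± 2.67 CPM at 1 d postpartum. ADGRD1, an adhesion G protein-coupled receptor, had 21.9 ± 8.47 CPM at 14 d prepartum, 12.6 ± 1.52 CPM at 2 d prepartum and 20.01 ± 2.14 CPM at 1 d postpartum. PLXNA2, a semaphorin receptor, the transcription factor KLF7 and the cytokine gene IL25 had ratios of 0.664, 0.625 and 0.635. The symbol IL25 came from the study's gene table alone. The 12 genes of the group that had been assigned to epithelium, receptors and signalling had a median ratio of 0.590, against 0.561 in the 10 matrix genes.

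Membrane transport and related membrane proteins accounted for 8 of the named genes. SLC4A4, a sodium bicarbonate cotransporter, had 31.4, 53.7 and 40.4 CPM at 14 d prepartum, 25.2, 36.0 and 32.8 CPM at 10 d, 20.4, 26.0 and 25.1 CPM at 6 d, 12.3, 19.7 and 16.7 CPM at 2 d and 23.5, 90.1 and 129 CPM at 1 d postpartum. Its means stepped down at every prepartum time point, and after birth sow 1 lay below its own level of 14 d while the other sows lay above theirs. ATP1B1, the beta subunit of the sodium and potassium pump, had 110.03, 90.5 and 119 CPM at 14 d prepartum, 125, 73.7 and 91.4 CPM at 10 d, 117, 64.6 and 89.7 CPM at 6 d, 73.3, 42.7 and 77.9 CPM at 2 d and 117, 84.5 and 145 CPM at 1 d postpartum. In ATP1B1 the sow with the lowest value was the same at each time point, and the 2 d libraries of the other sows overlapped with the lowest 10 d and 6 d libraries. SLC22A17, a receptor for lipocalin 2, had 48.4, 32.5 and 32.5 CPM at 14 d prepartum, 40.2, 32.4 and 35.9 CPM at 10 d, 33.1, 24.8 and 37.3 CPM at 6 d, 25.1, 18.8 and 25.6 CPM at 2 d and 28.1, 44.4 and 36.3 CPM at 1 d postpartum. Its libraries of 14 d, 10 d and 6 d overlapped, and it returned to a mean 0.959 times that of 14 d prepartum.

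KCNK1, a potassium channel, had means of 6.01 ± 0.436 CPM at 14 d prepartum, 3.49 ± 0.652 CPM at 2 d prepartum and 12.6 ± 4.16 CPM at 1 d postpartum (SD, n = 3). RYR2, a calcium release channel, had 7.12 ± 1.30 CPM at 14 d prepartum, 4.41 ± 1.17 CPM at 2 d prepartum and 10.1 ± 2.80 CPM at 1 d postpartum, and CTNS, the lysosomal cystine transporter, had 35.3 ± 1.81 CPM at 14 d prepartum, 22.6 ± 2.12 CPM at 2 d prepartum and 48.1 ± 15.9 CPM at 1 d postpartum. LRRC8B, a subunit of volume-regulated anion channels, and PLLP, a membrane protein of myelin and epithelia, had ratios of 0.624 and 0.603.

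CRY1, a repressor of the circadian clock, was the only member whose lowest mean was not at 2 d but at 6 d prepartum. It had 19.7, 24.0 and 24.5 CPM at 14 d prepartum, 18.8, 15.3 and 20.5 CPM at 10 d, 11.8, 9.91 and 10.9 CPM at 6 d, 14.1, 14.4 and 11.6 CPM at 2 d and 46.8, 26.8 and 16.4 CPM at 1 d postpartum. All 3 libraries of 6 d were below all 3 of 10 d, and the postpartum values were highest in sow 1, the sow in which most other members were lowest after birth. ALDH2, the mitochondrial aldehyde dehydrogenase, had means of 18.1 ± 1.96 CPM at 14 d prepartum, 11.1 ± 1.14 CPM at 2 d prepartum and 222 ± 136 CPM at 1 d postpartum (SD, n = 3), with 79.0, 238 and 349.7 CPM in the 3 postpartum libraries and a postpartum mean 19.97 times that at 2 d. PER2, another clock repressor, missed the set both by its ratio of 0.673 and by overlap. It had 13.3, 11.5 and 14.7 CPM at 2 d prepartum and 29.6, 15.2 and 13.9 CPM at 1 d postpartum.

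The cytoskeletal and adhesion genes AVIL, TRIP6 and ASAP3, of which AVIL encodes an actin-binding protein and TRIP6 a protein of focal adhesions, had ratios of 0.544, 0.624 and 0.653. TSPOAP1 had 10.1, 5.87 and 9.51 CPM at 14 d prepartum, 6.13, 2.93 and 9.05 CPM at 10 d, 7.85, 4.48 and 8.57 CPM at 6 d, 3.36, 2.54 and 5.61 CPM at 2 d and 5.62, 5.75 and 11.99 CPM at 1 d postpartum. RNF180, a ubiquitin ligase, had 5.27, 4.70 and 5.05 CPM at 14 d prepartum, 2.70, 3.99 and 3.58 CPM at 10 d, 2.44, 2.45 and 4.04 CPM at 6 d, 2.14, 3.27 and 2.73 CPM at 2 d and 11.1, 6.94 and 6.43 CPM at 1 d postpartum. In TSPOAP1 sow 2 was lowest at every prepartum time point, and in RNF180 the 10 d, 6 d and 2 d libraries overlapped. KLHL29, MPPE1 and CCDC112 had ratios of 0.642, 0.647 and 0.629. BAIAP2 and CDS1 lay close to the threshold and are named after their values were seen.

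The lowest ratios of the whole set belonged to unnamed genes. ENSSSCG00000011147, on chromosome 10 at 71833306 to 71847875 of Sscrofa10.2, had 18.4, 6.04 and 3.88 CPM at 14 d prepartum, 8.61, 6.33 and 6.73 CPM at 10 d, 5.90, 4.90 and 4.19 CPM at 6 d, 2.84, 1.82 and 3.32 CPM at 2 d and 9.53, 10.3 and 3.44 CPM at 1 d postpartum. ENSSSCG00000003562, on chromosome 6 at 77758724 to 77760027, had 3.39, 10.98 and 3.06 CPM at 14 d prepartum, 4.01, 1.12 and 1.31 CPM at 10 d, 4.33, 0.852 and 2.07 CPM at 6 d, 3.01, 0.908 and 2.36 CPM at 2 d and 5.62, 7.64 and 26.7 CPM at 1 d postpartum. Both were low genes with 1 library far above the others at 14 d prepartum, and in the latter the means of 10 d, 6 d and 2 d lay close together. The 18 unnamed genes as a whole had ratios from 0.342 to 0.66982.

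The libraries of 10 d and 6 d prepartum entered neither the ratio nor the condition of no overlap. They entered the rule only through the minimum of 5 CPM in the highest mean of any time point, which 60 of the 61 genes also reached at 14 d or 1 d postpartum. SBSPON reached it through its 10 d mean alone and was left out of the comparison of these days (-6vs-10), a choice made after seeing the data. The 60 genes were on balance lower at 6 d than at 10 d, but no single gene passed the test. The fitted log2 fold change was below 0 in 52 of the 60 genes (86.7%; 53 of 61 with SBSPON), against 49.3% of all genes tested, and its median was -0.21 (quartiles -0.38 and -0.10), against 0.00 over all genes (quartiles -0.15 and 0.16). All 3 libraries of 6 d were below all 3 of 10 d in 10 of the 60 genes (16.7%), against 10.4% of all genes. Calls asked for an adjusted p of 0.05 or less both for time as a whole and for the comparison itself (edgeR quasi-likelihood test with Benjamini-Hochberg adjustment over all 13503 genes), and 0 of the 60 and 0 of all genes (0%) were called. The smallest adjusted p among the 60 genes was 0.664. At an unadjusted p of 0.05 or less, 5 of the 60 genes (8.33%) were lower and 0 were higher, against 3.61% lower and 3.45% higher among all genes, 953 genes in total. With DESeq2, 28 of all genes were called and 0 of the 61 members. With the sow as a block 1 gene in all was called higher (0.00741%) and 0 lower, with 0 of the members among them.

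Among the 5 genes, CRY1 had a log2 fold change of -0.75 (SE 0.27, edgeR adjusted p = 0.669), lower in 3 of 3 sows. Each SE was derived as the absolute log2 fold change over the square root of the F value of the test. TNXB had -0.94 (SE 0.41, edgeR adjusted p = 0.692). ADGRD1 had -0.57 (SE 0.25), ACVR1B had -0.48 (SE 0.22), and the fifth was ENSSSCG00000010491 with -0.51 (SE 0.18). None of the 5 passed the adjusted threshold. Sow by sow, 47, 46 and 51 of the 60 genes were lower at 6 d than at 10 d, against 50.5%, 49.8% and 48.4% of all genes. In 31 genes (51.7%) the 6 d value was lower in all 3 sows, as it was in 22.8% of all genes, and in 0 of the 60 was it higher in all 3, as in 23% of all genes. By role, 9 of 9 matrix genes, 8 of 8 transport genes, 10 of 12 epithelial, receptor and signalling genes, 3 of 4 cytoskeletal and adhesion genes, 2 of 3 metabolic and clock genes, 4 of 6 other named genes and 16 of 18 unnamed genes were below 0. The matrix genes had a median of -0.26, beside -0.24 in a list of 39 extracellular matrix genes of which LOXL1 and COL12A1 are the only members among the 61. ELF3 (0.22, SE 0.46) and TSPOAP1 (0.20, SE 0.42) had values above 0.

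**Figure D3:**
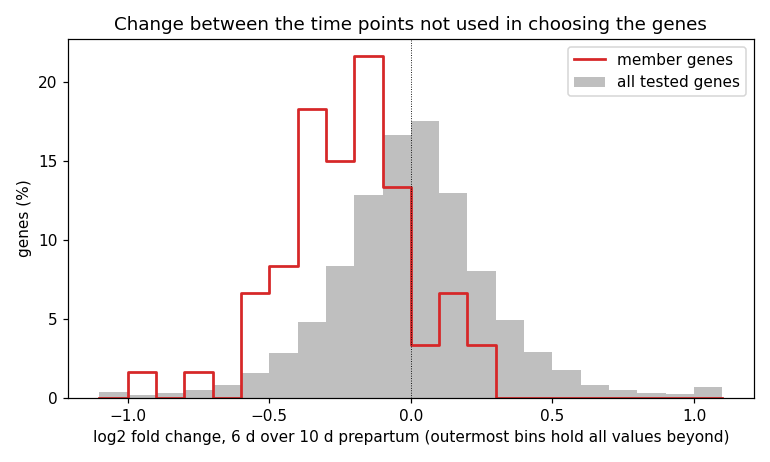
Distribution of the fitted log2 fold change of 6 d over 10 d prepartum in bins of 0.1, as the percent of genes, for 60 members without SBSPON (red outline) and all 13503 tested genes (grey bars). The members centre at -0.21 and all genes at 0.00.

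Over the prepartum time points the median log2 fold change of the 61 genes against 14 d prepartum was -0.19 at 10 d, -0.38 at 6 d and -0.78 at 2 d. These values share the 14 d libraries that chose the genes, so they describe the path only. At 6 d the median gene had 50.6% of its log2 decline to 2 d. The means fell at each step from 14 d through 10 d and 6 d to 2 d in 42 of the 61 genes (68.9%), against 10.8% of all genes. The lowest mean of the 5 time points was at 2 d in 60 genes, CRY1 being the exception. The highest mean was at 1 d postpartum in 44 genes, at 14 d in 13 and at 10 d in 4.

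After birth the genes parted. In 38 of them the postpartum mean was within 1.5 times that of 14 d prepartum, in 23 it was at least 1.5 times higher, and in 0 at least 1.5 times lower. Among the receptors and regulators, ACVR1B reached 0.841 and HEY2 0.946 times the 14 d mean. At the other end, SPP1 reached 15.0, ALDH2 12.3, TNC 5.94 and ELF3 3.50 times the 14 d mean. The 6 genes at 3 times or more also held ENSSSCG00000004760 and ENSSSCG00000030656, named for completeness after their values were seen. These folds are of means over sows. Within the 6 genes, sow 1 lay below its own 14 d value in ELF3 (9.53 against 13.7 CPM) and ENSSSCG00000004760 (4.26 against 5.22 CPM). The lowest postpartum return was 0.719 times in ENSSSCG00000012699, likewise named after its value was seen.

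**Figure D4:**
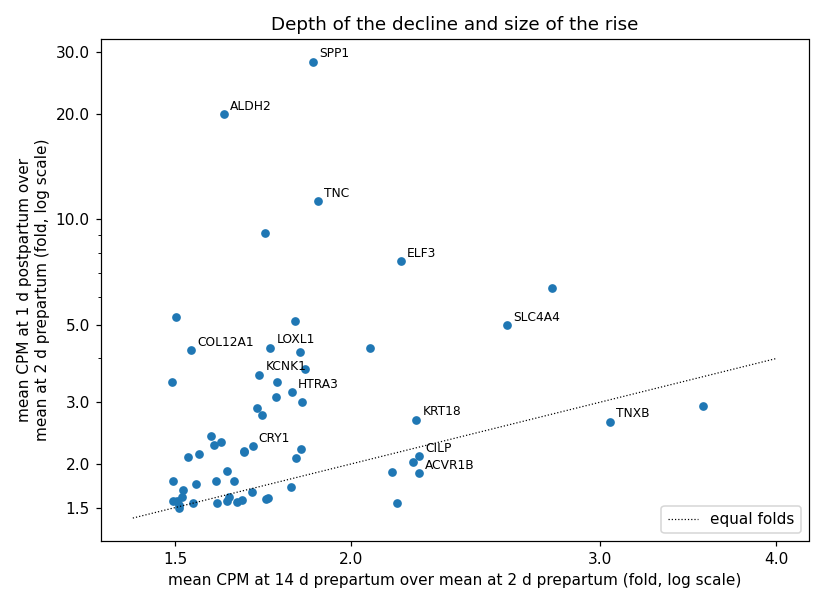
Each point is 1 of the 61 genes, with the fold of the mean at 14 d prepartum over that at 2 d prepartum on the horizontal log axis and the fold of the mean at 1 d postpartum over that at 2 d prepartum on the vertical log axis; the dotted line marks equal folds. TNXB lies near the line, and SPP1 (28.2), ALDH2 and TNC lie far above it.

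The calls in the comparisons that used the choosing libraries are given as a description. In -2vs-14, 9 of the 61 genes were called lower, where 0.896% of all genes were, and with the sow as a block 30 were, where 3.61% of all genes were. The named genes among the 9 were KRT18, ACVR1B, HTRA3, HEY2, TRIP6 and BAIAP2, and leaving out single libraries gave counts from 0 to 9, with 0 without 14 d replicate 4, 2 d replicate 28 or 2 d replicate 31. In +1vs-2, 40 of the 61 were called higher, where 8.01% of all genes were, and with the sow as a block 51 were, where 10.6% of all genes were. In +1vs-14, 17 of the 61 were called higher and 0 lower, where 13.3% and 10.4% of all genes were, and with the sow as a block 21 were called higher, where 16.3% of all genes were.

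The same rule was applied with other days as the low point to set the count beside its neighbours. With 6 d prepartum as the low point 9 genes met it and with 10 d prepartum 2 genes, against 61 at 2 d. The mirrored rule, which asks for a mean at least 1 / 0.67 times both ends and no overlap, gave 36 genes at 2 d, 20 at 6 d and 2 at 10 d prepartum. These counts were not tested against each other. Over all 13503 genes the ratio of 2 d to the lower end had a median of 1.14, and 25.6% of genes were below 1.

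**Figure D5:**
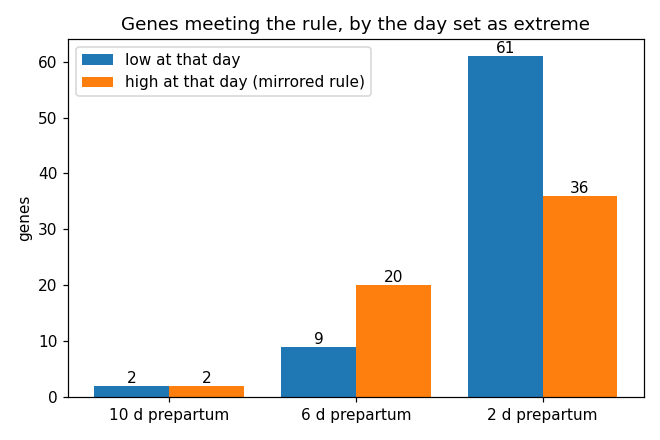
Number of genes that met the rule with 10 d, 6 d or 2 d prepartum as the low point (blue bars: 2, 9 and 61) and the mirrored rule with that day as the high point (orange bars: 2, 20 and 36). The vertical axis starts at 0.

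Several properties of the libraries changed over the time points, and their part in the pattern was not tested. The share of counts taken by the 10 highest genes was 16.6 to 19.5% at 14 d, 17.3 to 21.7% at 10 d, 20.9 to 25.4% at 6 d, 25.1 to 35.7% at 2 d and 30.5 to 53.8% at 1 d postpartum, with the highest share in the postpartum library of sow 1 (replicate 37). That library was the lowest of the 3 postpartum libraries in 45 of the 61 genes, and without it 127 genes met the rule. Without 2 d replicate 34, 118 genes met it, and 30 of the 61 were kept under each of 9 single-library omissions. The scaling bore on the set as well. TMM factors were 1.15 to 1.24 at 14 d, 0.829 to 1.01 at 2 d and 0.545 to 0.884 at 1 d postpartum. On total counts without TMM, the ratio stayed below 1 in all 61 genes (median 0.531), but 17 of the 61 met every condition, and the median log2 fold change of all genes was -0.42 in -2vs-14 and -0.22 in +1vs-2, against -0.01 and 0.02 with TMM, while the medians of the 61 genes were -1.18 and 0.93. On this scale 25 of the 61 were called lower in -2vs-14, where 1268 of all 13503 genes were. In +1vs-2, 22 of the 61 were called higher, where 382 of all genes were. In all, 55 genes met the rule without TMM. TNXB, TNC, SPP1, LOXL1, COL12A1 and CRY1 were among the 17 members that did. SLC4A4, KRT18, ELF3, CILP, ACVR1B, NDRG2, ANXA1, MET and HEY2 were among those that did not. Under every scaling and every single-library omission, 14 members were kept. With edgeR's relative log expression scaling (RLE) in place of TMM, 60 of the 61 met the rule.

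Lists of genes of the same pathways and cell types, chosen with earlier results of these data known, were read across all their tested members. The counts of these lists and of the markers below stand beside those of all 13503 genes. Among all genes, 263 were called higher and 121 lower in -2vs-14, and 1081 higher and 978 lower in +1vs-2. With the sow as a block, 684 of all genes were called higher and 488 lower in -2vs-14. Of 39 extracellular matrix genes, LOXL1 and COL12A1 were members, 0 were called in -2vs-14, where the list's median change was -0.47 (log2), and with the sow as a block 8 were called lower. Their summed level was 8160 to 11705 CPM at 14 d, 6824 to 7211 CPM at 2 d and 5274 to 7991 CPM at 1 d postpartum. In +1vs-2, 4 matrix genes were called higher, led by LOXL1 (log2 fold change 2.10) and COL12A1 (2.08), and 4 lower, led by MMP16, a membrane-bound matrix metalloproteinase (-1.04), and NID1, the basement membrane protein nidogen (-0.72). The median change of the list in +1vs-2 was 0.20.

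Of 27 luminal and secretory genes, 7 were called higher in -2vs-14, led by the milk genes LALBA (log2 fold change 7.21) and BTN1A1 (6.08), and 1 was called lower, the member KRT18 (-1.15). The summed level of the list was 20270 to 25475 CPM at 14 d, 96545 to 219463 CPM at 2 d and 111975 to 532880 CPM at 1 d postpartum, and the casein and lactalbumin genes that define the tissue were detected. In +1vs-2, 5 were called higher, led by LCN2, the iron-binding lipocalin 2 (6.15), and KRT18 (1.43), and 3 lower, led by the transcription factors FOXA1 (-1.52) and TFAP2C (-1.22). With the sow as a block, 8 genes of this list were called higher and 5 lower in -2vs-14. Of 16 clock genes, PER2 (-1.13) was called lower in -2vs-14 and 0 higher, and in +1vs-2, 3 were called higher, led by NFIL3 (1.60) and CRY1 (1.15), and 1 lower, CIART. Of 180 solute carriers, 10 were called higher in -2vs-14, led by the amino acid transporter SLC6A14 (4.17) and the phosphate transporter SLC34A2 (1.76), and 1 lower, the zinc transporter SLC39A6 (-0.63). In +1vs-2, 25 solute carriers were called higher, led by SLC7A4 (4.79) and SLC47A2 (2.36), and 7 lower, led by SLC6A3 (-3.03) and SLC16A12 (-2.65). With the sow as a block, 3 clock genes were called lower in -2vs-14, and 17 solute carriers were called higher and 6 lower.

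In these bulk samples, fewer cells of a type and less RNA per cell cannot be told apart. Of 14 smooth muscle and myoepithelial markers, 0 were called in -2vs-14 and 8 were called higher in +1vs-2 (median 1.02), with summed levels of 3122 to 3254 CPM at 14 d, 2795 to 3187 CPM at 2 d and 4553 to 8193 CPM at 1 d postpartum. Of 9 skeletal and cardiac muscle markers, 0 and 5 were called higher in the same comparisons, with sums of 32.1 to 35.6, 27.5 to 35.7 and 74.4 to 146 CPM. The muscle and myoepithelial sums were thus higher after birth, beside the 61 genes, and their ranges at 14 d and 2 d overlapped. Of 20 endothelial markers, 2 were called higher in each comparison and 0 lower, and of 11 adipocyte markers, 1 was called higher and 1 lower in -2vs-14 and 3 higher in +1vs-2. Of 20 T cell and NK cell markers 0 were called in -2vs-14 and 2 lower in +1vs-2, of 9 B cell and plasma cell markers 1 was called higher and then 1 lower, and of 22 monocyte, macrophage and neutrophil markers 0 were called and then 3 higher and 1 lower. Of 8 MHC class II genes 0 were called in either comparison by edgeR, and 1 was called lower in -2vs-14 with the sow as a block.

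None of the 6 further lists held a member. Of 42 cell cycle genes, 0 were called in -2vs-14 and 33 lower in +1vs-2, of 37 interferon response genes 0 and then 13 higher, and of 21 cholesterol synthesis genes 0 and then 11 higher. Of 30 early response genes, 1 was called lower in -2vs-14, then 10 higher and 1 lower in +1vs-2. Of 17 heat shock and chaperone genes 0 were called, then 2 higher and 3 lower, and of 193 zinc finger genes 3 were called lower, then 3 higher and 8 lower. With the sow as a block, 15 zinc finger genes were called lower and 3 cholesterol synthesis genes higher in -2vs-14.

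The 61 genes lay across the genome of Sscrofa10.2. Chromosome 14 held 7 of them (11.5%, against 6.27% of all tested genes) and chromosomes 1, 6 and 7 held 6 each. KRT18 (chromosome 5, 18725320 to 18729778, plus strand) and ACVR1B (chromosome 5, 17901709 to 17938189, plus strand) were 787131 bp apart, and IL25 and SLC22A17 were 20395 bp apart on chromosome 7 on opposite strands; no other members were within 1 Mb of each other. TNXB was annotated on chromosome 7 at 27681441 to 27723570, SPP1 on chromosome 8 at 140307938 to 140315415 on the minus strand, and TNC on chromosome 1 at 286732772 to 286813962 on the minus strand. Counts were summed over the exons of each gene. The summed exon length had a median of 2292 bases against 2046 over all tested genes, and the mean CPM over all libraries had a median of 11.3 against 15.8. The models of 5 members, KRT18, RCN3, ANXA1 and 2 unnamed genes, overlapped another gene model on the same strand, and reads shared with near-identical copies, as in the keratin and annexin families, were not checked.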

How the data were processed

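The deposited files hold raw read counts per Ensembl gene, 1 library each. Per the file headers and the labels, the authors trimmed reads with Trimmomatic 0.33, aligned them with STAR 2.5.1b to Sscrofa10.2 and made the counts with featureCounts of Subread 1.5.0 over exons on the reverse strand. Groups are the 5 time points of the labels, 3 libraries each. The members and lists were chosen with earlier results of these data known. From the counts, CPM were computed in R 4.3.3 with edgeR 4.0.16 (TMM) for genes with 1 CPM in 3 libraries, and all comparisons were fitted in 1 quasi-likelihood model of time over 15 libraries, with Benjamini-Hochberg adjustment over all genes. Raw counts per library ranged from 10782343 to 19952918. DESeq2 1.42.0 and limma 3.58.1 were alternatives, as were other scalings, filters and omitted libraries. Scripts were tested on simulated data.

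Symbols came from the study's gene table, then an Ensembl table. Of the named members, the 40 with the lowest ratio were to be described, and per-library values were to be given for the 12 lowest ratios, members of a list and the 3 highest means. From each list at most 2 called genes a direction were named. Groups by role were assigned after the members were known.

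The labels number each library once and give no sow. Sows were joined by exact total count to the study's alignment summary. Deviations from time point means correlated between libraries of the same sow with a mean of 0.396 (30 pairs, lowest 0.103), so the sow entered as a block in alternatives. The mean between sows was -0.198 (60 pairs). Centring on time point means ties this value to that of the same sow, so it gives no separate information. The main model held no sow term, so its p-values treat the libraries of a sow as independent. Their spread mixes differences between and within these 3 sows, and the block fits take out the part between sows. No sequence is shown, and 1 member is not reported here by name.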

Additional observations from a re-analysis of the deposited data

How the results depend on the processing

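The number of members was 9 at a ratio of 0.5, 158 at a ratio of 0.8, and 57 to 127 when single libraries were left out (127 without 1 d postpartum replicate 37, 118 without 2 d replicate 34, 57 without 1 d replicate 43); it was 42 to 64 under the other settings. In -6vs-10, single-library omissions gave 0 calls, 0 members called and 46 to 53 members lower; the sow as a replicate block gave 1 call and DESeq2 28, none of them members, and 53 of the 61 members were lower in both. Without SBSPON, left out after seeing the data, 52 of 60 were lower. In -2vs-14, against 384 calls (263 higher, 121 lower), there were 1172 with the sow as a replicate block, 1106 with limma-voom and a random sow effect, 1083 with DESeq2, 579 from the 6 libraries alone and 1428 on total counts without TMM (160 higher, 1268 lower), and 37 (without 14 d replicate 4) to 573 (without 2 d replicate 34) with single libraries left out. In +1vs-2, against 2059 calls (1081 higher, 978 lower), there were 430 from the 6 libraries alone, 2190 on total counts without TMM (382 higher, 1808 lower), 2710 with the sow as a replicate block and 1377 to 2996 with single libraries left out. Members called lower in -2vs-14 numbered 25 without TMM, 26 with limma-voom and a random sow effect, 30 with DESeq2 and 19 from the 6 libraries alone. In the same fits 1268, 463, 466 and 181 of all genes were called lower. In +1vs-2 members called higher numbered 22 without TMM, 14 from the 6 libraries alone and 29 to 47 with single libraries left out. In those fits 382, 246 and 691 to 1489 of all genes were called higher. The causes were not tested. No ratio of a named member rose above 1 under any alternative run. With 3 libraries a time point, an exact permutation test of 1 gene cannot go below 0.1.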
